A study of Drosophila melanogaster with 48 samples.

Results

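Adult Drosophila melanogaster whose larvae had grown on medium enriched with tomato paste were compared with adults of the same lines whose larvae had grown on cornmeal-molasses medium, called standard below. Of the 48 expression arrays of the series, 15 entered the comparison. They were 5 tomato arrays, 1 for each of lines 158, 362, 379, 786 and 859, and 10 standard arrays, 2 for each of those lines. They were chosen by line, by medium and by the spelling of the array's title: each of these lines has 2 tomato arrays, and the one used is the one whose title sets line, medium and number apart with spaces, as the titles of all standard arrays do. The other tomato array of each line, titled with a hyphen, is described at the end. The rule itself uses no expression value, but the comparison was chosen with earlier results of these data known.

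The adults of both groups had been kept on standard medium after eclosion, at the same temperature and light cycle, so that the comparison asks which traces of the larval food could be read in adult RNA. RNA came from whole bodies. The labels give an age, 3 to 5 days, only for the standard arrays of line 158 among these 15, and give no sex. They do not define the line numbers, and nothing in them says that the 2 standard arrays of a line came from separate cultures. P-values thus measure only the spread between these arrays, which may be technical in part. In the comparison of media, that spread pools the differences within standard pairs with the line-to-line variation of the tomato difference.

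Because the genes called below include members of the fly's immune defence, some background helps. Drosophila answers microbes with secreted antimicrobial peptides, which the fat body and the barrier tissues make under the Toll and Imd pathways. Circulating blood cells, the haemocytes, engulf microbes and carry prophenoloxidases, the enzymes that form melanin at wounds and around intruders once a cascade of serine proteases has activated them. Other adult genes known to follow food are those of digestion, made in the midgut, and those of detoxification, such as the cytochrome P450 and glutathione transferase families.

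The values were MAS5 signals, an intensity on a linear scale in which each array had been scaled to a common mean. A difference is given below on the log2 scale as tomato minus standard. It was fitted with limma over the 15 arrays with line as a block, over 11261 probe sets, and a probe set was called at an adjusted p under 0.05. The median signal of an array ran from 108 to 159 on the tomato arrays and from 127 to 150 on the standard arrays. It was 108 and 115 on the tomato arrays of lines 158 and 379, below every standard array, and 159 on that of line 786, above them. As tomato minus the mean of the line's standard arrays, it differed by -35.0, -34.7 and -16.5 in lines 158, 379 and 859. In lines 362 and 786 it differed by 10.5 and 16.9. The standard arrays of a line correlated at 0.958 to 0.991 over the tested probe sets, and a tomato array correlated at 0.922 to 0.977 with the standard arrays of its line. On 200 probe sets that separate the lines, each tomato array matched its own line (correlations of 0.82 to 0.955) and no other line (0.051 at most). Genes of the ovary and of the male reproductive tract were bright on all 15 arrays. The mean log2 signal of 12 eggshell genes ran from 11.9 to 13.4 on tomato and from 12.0 to 12.9 on standard arrays, and that of 7 accessory gland genes from 11.8 to 12.8 on tomato and from 11.6 to 12.8 on standard arrays. For 7 testis genes it ran from 10.3 to 11.7 on tomato and from 10.4 to 11.7 on standard arrays.

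In the fit over all 5 lines, nearly all called differences were toward lower signal after tomato medium, and they covered few genes. Of the 11261 probe sets, 30 were called (0.266%), 29 of them lower (0.258%) and 1 higher (0.00888%) on the tomato arrays. The 29 stood for 28 named genes, among them the immune peptide genes Def and Drsl5, the prophenoloxidase gene PPO2 and the alkaline phosphatase genes Alp9 and Alp10, and for 1 probe set without a gene name. Sizes ran from 0.40 to 1.30 log2 units with a median of 0.63. All 30 moved the same way in 5 of 5 lines, and in 29 of them the tomato array lay outside both standard arrays in every line. The calls were made on the same values, which favours such probe sets, so that neither count is separate evidence. In none of the 30 did the 5 tomato arrays stand apart from all 10 standard arrays, because levels also differ from line to line. An unadjusted p under 0.05 was found for 1615 probe sets (14.3%), 511 of them higher and 1104 lower.

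The number of calls rested on few arrays. Leaving out all arrays of line 158 left 1 call, without line 362 there were 6 and without line 379 there were 0 (706 at an unadjusted p under 0.05). Without line 786 there were 3027, 1426 of them higher and 1601 lower. Neither the small number of calls nor their mostly lower direction thus held without that line. Single standard arrays mattered as well. The count was 19 without the first and 3 without the second standard array of line 158, 3 without the second of line 362, 3 and 4 without the first or second of line 379, 5 and 3 without the first or second of line 786, and 4 without the second of line 859. All 30 kept their direction in each of these fits. CG14125, CG9928 and hiro kept their calls whichever of the 10 standard arrays was left out, and every called probe set kept its call without line 786, while none kept it in all 5 fits that left out a line. Pairing each tomato array with the mean of its line's standard arrays gave 0 calls in limma, with 490 probe sets at an unadjusted p under 0.05. The spread in that fit is the variation of the tomato difference between lines, without the standard pairs.

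The immune peptide gene Def encodes defensin, a peptide active mainly against Gram-positive bacteria. Its signal was 313, 227, 367, 489.9 and 107 on the tomato arrays of lines 158, 362, 379, 786 and 859, against a lowest value of 157, a median of 866 and a highest value of 1382 on the standard arrays. In every line the tomato array was below both standard arrays, and only line 859, which was low on both media, made the groups overlap at the bottom. The log2 mean was 8.06 ± 0.84 on tomato and 9.36 ± 1.17 on standard medium (SD, n = 5 lines), a fitted difference of -1.30 (SE 0.23, adjusted p = 0.033). Def kept its call in 1 of the 10 fits without a single standard array.

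Drsl5, a gene of the drosomycin family of antifungal peptides, gave 1928, 1211, 1285, 743 and 1391 on the tomato arrays, against 1412 to 2382 with a median of 1797 on the standard arrays. It fell by 0.58 (SE 0.10, adjusted p = 0.030), with line differences between -0.27 in line 158 and -0.93 in line 786. Metchnikowin, encoded by Mtk and active against fungi, was not called. Mtk read 174, 574, 217, 759.5 and 304 on the tomato arrays, against 199 to 3849 with a median of 1758 on the standard arrays. Its difference was -1.99 (SE 0.38, adjusted p = 0.053), and line 859 went the other way at 0.20, against -2.05 to -3.40 in the other lines.

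Of 31 antimicrobial peptide genes listed, 15 were on the array and 11 were tested. Def and Drsl5 were called lower, 0 were called higher, and 8 of the 11 (72.7%) were lower at an unadjusted p under 0.05, where 9.87% of all genes were. The list's median difference was -0.43, beside -0.01 over all 9419 tested genes. By line the list's median was -0.53, -0.54 and -0.61 in lines 158, 362 and 379 and 0.06 and -0.18 in lines 786 and 859. The tested genes DptB and Drs, not singled out by the naming rule and named after their values were seen, had differences of -2.04 and -0.40 at adjusted p of 0.18 and 0.12.

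**Figure D1:**
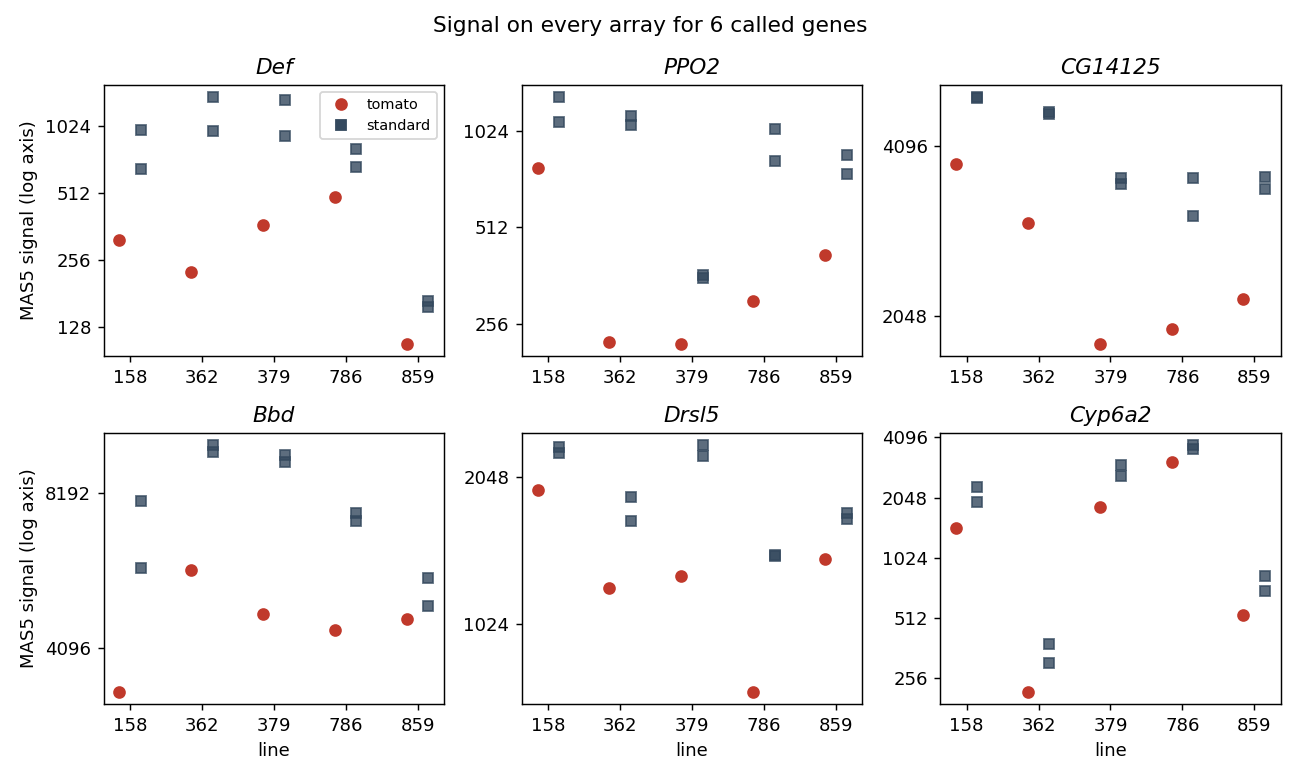
MAS5 signals (log axis) on each of the 15 arrays for 6 called genes, with the lines along the horizontal axis, tomato arrays as red circles and standard arrays as dark squares. In each panel the tomato point of a line lies below both standard points of that line, while the lines themselves stand at different levels, as for Cyp6a2 (219 to 3091 on the tomato arrays).

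PPO2, which encodes a prophenoloxidase stored in crystal cells, read 782, 224, 222, 300.4 and 418 on the tomato arrays, against 356 to 1303 with a median of 948 on the standard arrays. Line 379 was low on both media, and the drop was steepest in line 362 (-2.29). The log2 mean was 8.43 ± 0.76 on tomato and 9.66 ± 0.69 on standard medium (SD, n = 5 lines), a difference of -1.23 (SE 0.20, adjusted p = 0.030). Its close relative PPO1 had 598, 93.8, 319, 178 and 254 on the tomato arrays, against 427 to 856 on the standard arrays. PPO1 was below both standard arrays in every line with a difference of -1.25 (SE 0.26), but at an adjusted p of 0.061 it was not called.

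SPE encodes the Spätzle-processing enzyme, the protease that activates the Toll ligand. Its signal was 864, 1610.0, 781, 1722 and 992 on the tomato arrays, against 1384 to 2183 with a median of 1780.1 on the standard arrays. It fell by 0.63 (SE 0.10, adjusted p = 0.030), most in lines 158 (-1.02) and 379 (-0.86). Tep4, a thioester-containing protein of the haemolymph, fell by 0.55 (SE 0.09, adjusted p = 0.030), with 1155 to 2134 on the tomato arrays, against 1571 to 2948 on the standard arrays. SPE and Tep4 lie outside the naming rule, as do the other called genes below its 12 largest falls, and they are named because all called genes are accounted for.

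Among 24 tested genes of microbe recognition and haemocytes, PPO2 alone was called, 11 (45.8%) were lower at an unadjusted p under 0.05 and 20 had lower means, with a median of -0.31. NimB2, a secreted Nimrod protein, differed by -0.50 (SE 0.11, adjusted p = 0.081), with 787 to 2030.0 on the tomato arrays, against 1254 to 2361 on the standard arrays. Line 786 went the other way for NimB2 (0.08). Whether fewer haemocytes or less RNA in each haemocyte lay behind a lower signal cannot be told apart in RNA of whole bodies, and the same holds for every other tissue named here.

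Bbd, known as bombardier and needed for the immune peptides called bomanins, was among the brightest called genes. It gave 3358, 5796, 4764, 4428 and 4658 on the tomato arrays, against 4937 to 10159 with a median of 7707 on the standard arrays. The difference was -0.74 (SE 0.11, adjusted p = 0.030), smallest in line 859 (-0.17). Tsf1, which encodes the iron carrier transferrin, is measured by 2 tested probe sets that do not give the same call. The brighter one, which stands for the gene, differed by -0.78 (SE 0.16, adjusted p = 0.059), and the dimmer one fell by 0.99 (SE 0.17, adjusted p = 0.032). The dimmer one read 515, 1549.9, 588, 476 and 760.0 on the tomato arrays, against 719 to 4588 with a median of 1183 on the standard arrays.

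CG6421 and CG16756, which belong to the lysozyme-like genes, fell by 0.57 and 0.42 (adjusted p = 0.030 and 0.043). CG6421 had 350.5 to 988 on the tomato arrays, against 588 to 1471 on the standard arrays, and CG16756 had 437 to 1048 on the tomato arrays, against 527 to 1580.4 on the standard arrays. Npc2g, of the Niemann-Pick type C2 family of lipid-binding secreted proteins, fell by 0.45 (adjusted p = 0.043). The serine protease genes CG7542, CG11841 and CG33127 fell by 0.54, 0.51 and 0.45 (adjusted p = 0.030, 0.030 and 0.049). For all 6 genes the tomato array was below both standard arrays in 5 of 5 lines, as it was for 1.94% of all tested genes. The 6 were called on these same values, which favours such genes, so that this position is not separate evidence.

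A pair of neighbouring genes on chromosome arm 3L, Alp10 and Alp9, encodes alkaline phosphatases, enzymes that free phosphate from larger molecules. No protein-coding gene of the RefSeq table lies between them. Alp9 read 231, 807, 918, 510.1 and 536 on the tomato arrays, against 471 to 1553 with a median of 1035 on the standard arrays. It fell by 0.85 (SE 0.15, adjusted p = 0.040), and its line differences ran from -0.19 in line 362 to -1.30 in line 158. Alp10 read 517, 1254, 1569.6, 1479 and 1022 on the tomato arrays, against 1168 to 2752 with a median of 1898 on the standard arrays, and fell by 0.71 (SE 0.11, adjusted p = 0.030).

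The smallest adjusted p, 0.0050, belonged to CG14125 and CG9928, genes whose roles are not described here. CG14125 gave 3793, 2992, 1827, 1940.2 and 2188 on the tomato arrays, against 3075 to 4985 with a median of 3599 on the standard arrays. CG9928 gave 1018, 2641, 1275, 2337 and 2115 on the tomato arrays, against 1501 to 5105 with a median of 2728 on the standard arrays. Both fell, and their line differences ran from -0.39 to -0.96 for CG14125 (mean -0.69, SE 0.08) and from -0.36 to -0.90 for CG9928 (mean -0.71, SE 0.08).

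The other named falls were those of CG14120 (-0.76), CG4250 (-0.70), CG17560 (-0.69), CG43103 (-0.67) and hiro (-0.66), with SEs of 0.09 to 0.12 and adjusted p of 0.013 to 0.043. CG4250 showed how far lines can differ in level around a shared drop. It had 98.9 on the tomato array of line 362 and 2015 on that of line 786, against 176 to 183 and 2598 to 2933 on the standard arrays of those lines. CG17560, of the fatty acyl-CoA reductase family, was the 1 called gene whose tomato array was not below both standard arrays everywhere: in line 362 it read 3515, between 3168 and 4171. hiro kept its level order across lines too, with 644 to 2312 on the tomato arrays, against 921 to 3946 on the standard arrays.

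**Figure D2:**
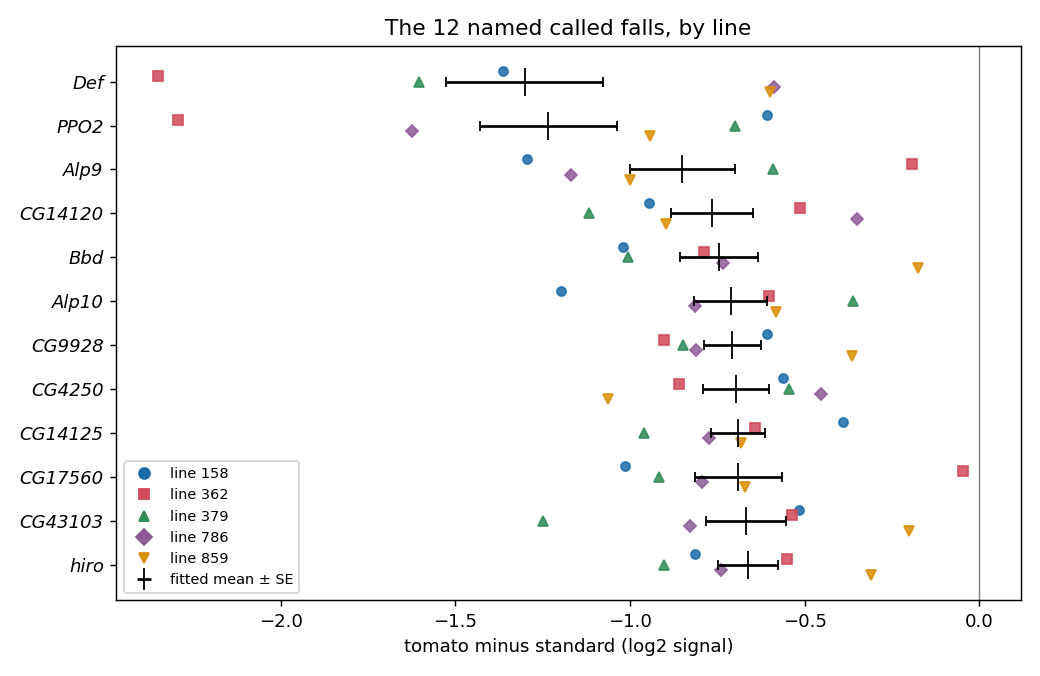
Tomato minus standard differences (log2 signal) of the 12 largest called falls among genes represented by their brightest probe set, with 1 coloured marker for each line and a black bar for the fitted mean ± SE. The dimmer Tsf1 probe set (-0.99) and a probe set without a gene name (-0.84) are not shown. All markers lie below 0. Def and PPO2 spread the most, from -2.35 and -2.29 in line 362 to -0.59 and -0.61 in lines 786 and 158, and CG14125 and CG9928 stay within -0.36 to -0.96.

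Of the remaining called genes, eloF encodes a fatty acid elongase that makes cuticular hydrocarbons and fell by 0.49 (SE 0.08, adjusted p = 0.030), with 1688 to 2417 on the tomato arrays, against 2018 to 3692 on the standard arrays. The gene veil encodes an extracellular nucleotidase and fell by 0.43 (adjusted p = 0.044). CG3819, CG30026 and CG10799, which are given no role here, fell by 0.62, 0.60 and 0.40 (adjusted p = 0.030, 0.030 and 0.043). The called probe set without a single gene name that was lower had a difference of -0.84, and the one that was higher had a difference of 0.59 (SE 0.10, adjusted p = 0.030). The probe set that was higher read 637, 318, 379, 211 and 571 on the tomato arrays, against 151 to 402 on the standard arrays, above both standard arrays in every line.

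Detoxification genes gave 1 call. Cyp6a2, a cytochrome P450 known for its part in insecticide resistance, read 1439, 219, 1844, 3091 and 532 on the tomato arrays, against 307 to 3733 with a median of 2133 on the standard arrays. It fell by 0.51 (SE 0.09, adjusted p = 0.032) with little spread over the lines, from -0.25 to -0.64. Of 66 tested P450 genes, 1 was called, 24 (36.4%) were lower and 0 higher at an unadjusted p under 0.05, and 58 had lower means, with a median of -0.23. Cyp4ac2 and Cyp6t3 were the next by p, at -0.64 and -0.73 (adjusted p = 0.068 and 0.081). Cyp6t3 was weak but stood apart, with 61.9 to 79.0 on the tomato arrays, against 87.9 to 180.1 on the standard arrays.

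Of 30 glutathione transferase genes, 0 were called in limma, 6 (20.0%) were lower at an unadjusted p under 0.05 and 23 had lower means, with a median of -0.17. GstE9, GstE12 and GstE2, of the epsilon class, differed by -0.58, -0.37 and -0.51 (adjusted p = 0.053, 0.071 and 0.093). GstE9 read 2272, 5842, 2786, 2600.1 and 2118 on the tomato arrays, against 2752 to 6635 on the standard arrays, and was level with its standard arrays in line 362 (-0.02). Among 23 UDP-glycosyltransferase genes 0 were called and 3 were lower at an unadjusted p under 0.05, led by Ugt317A1 at -0.46 (adjusted p = 0.17).

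Digestive protease genes were not called singly, although all 30 tested had lower means on the tomato arrays, 16 of them (53.3%) at an unadjusted p under 0.05. Over all 9419 tested genes, 4868 had lower means and 9.87% were lower at that level. The protease median was -0.31, and -0.21 with 29 of the 30 lower after quantile normalisation. By line it was -0.70 in line 158, -0.18 in line 362, -0.48 in line 379, 0.05 in line 786 and -0.10 in line 859. Jon66Ci, a Jonah protease of the midgut, read 18.1, 428, 45.5, 590.3 and 463 on the tomato arrays, against 61.7 to 1791 with a median of 496 on the standard arrays. Its difference was -1.04 (SE 0.23, adjusted p = 0.073), with -1.89 and -1.95 in lines 158 and 362 and -0.09 in line 859. The secreted proteases Ser6 and thetaTry differed by -0.46 and -0.42 (adjusted p = 0.094 and 0.10).

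Genes of sugar digestion and of the uptake of carotenoids, pigments in which tomato is rich, gave 0 calls in limma. Of 19 carbohydrate digestion genes, 3 (15.8%) were lower and 0 higher at an unadjusted p under 0.05, with LManII, a lysosomal mannosidase, at -0.39 (adjusted p = 0.15) and the maltase gene Mal-A1 at -0.33 (adjusted p = 0.33). Of 7 genes in the carotenoid and retinoid list, 2 (28.6%) were lower at that level. The list counts nej (0.16), which is not a carotenoid or retinoid gene and was its only member with a higher mean. The scavenger receptor gene santa-maria, which takes up carotenoids, read 509.6, 479.8, 494, 596 and 425.5 on the tomato arrays, against 446 to 737 on the standard arrays, a difference of -0.28 (adjusted p = 0.35).

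No named gene was called higher. At an unadjusted p under 0.05, 412 genes were higher (4.37%), and in 50 (0.531%) the tomato array was above both standard arrays in every line. Of those 50, the 12 with the smallest p are named here as not passing. The ETS repressor gene aop, also called yan, read 1114, 961, 1312, 1055 and 1000.1 on the tomato arrays, against 725 to 993 on the standard arrays, so that only the tomato array of line 362 lay within the standard range. Its difference was 0.36 (SE 0.07, adjusted p = 0.059). Gs1, a glutamine synthetase gene, read 4574, 4116, 3866, 4104 and 4137 on the tomato arrays, against 2928 to 3759 on the standard arrays, and the groups did not overlap. Its difference was 0.31 (SE 0.06, adjusted p = 0.062).

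The gene sun, or stunted, which encodes a subunit of the mitochondrial ATP synthase, was weak at 43.9 to 188 on the tomato arrays, against 28.2 to 105 on the standard arrays. It differed by 1.01 (SE 0.23, adjusted p = 0.073), most in lines 158 (1.77) and 786 (1.85). ETH, the ecdysis-triggering hormone gene, differed by 0.68 (adjusted p = 0.11), and REPTOR, a transcription factor held back by the nutrient kinase complex TORC1, by 0.36 (adjusted p = 0.13). The other 7 were CG32816 (0.82), CG10681 (0.53), CG32243 (0.45), gfzf (0.36), CAHbeta, a carbonic anhydrase gene (0.31), Snx1, a sorting nexin gene (0.29), and fray, a protein kinase gene (0.21), with adjusted p of 0.074 to 0.17.

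**Figure D3:**
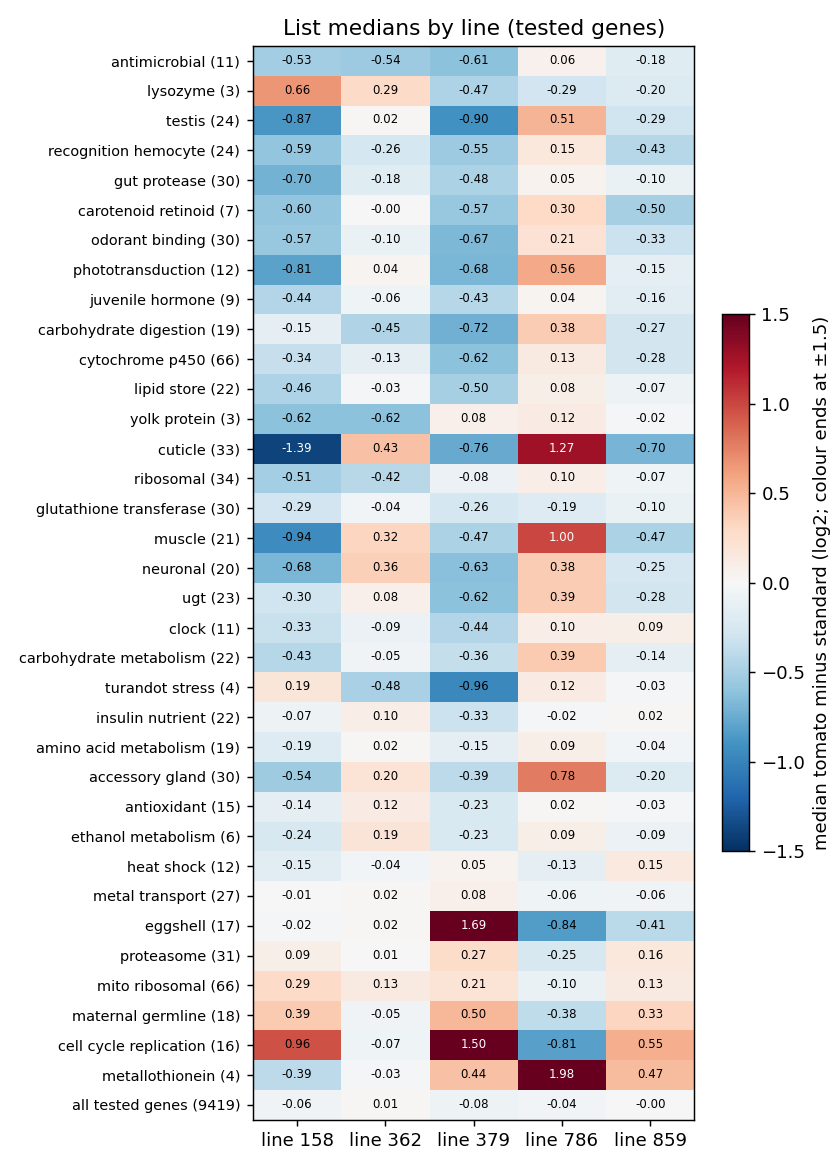
Median tomato minus standard difference (log2, colour and number) of 35 gene lists and of all tested genes in each of the 5 lines, with the number of tested genes beside each name. Lines 158 and 379 share most of the blue cells, line 786 has the opposite colour for cuticle (1.27), muscle (1.00) and cell cycle genes (-0.81), and line 362 stays close to 0 in many lists.

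Smell and body-clock genes are of interest because the submitters characterised behaviour toward an odorant, which is not analysed here. Of 52 odorant-binding protein genes listed, 30 were tested, 0 were called, and 11 (36.7%) were lower at an unadjusted p under 0.05, with a median of -0.25. Obp57c, Obp19a and Obp19d, which encode small secreted proteins that carry odorants and tastants, differed by -0.38, -0.58 and -0.42 (adjusted p = 0.059, 0.059 and 0.070). Obp57c and Obp19a were below both standard arrays in every line. Of 166 chemoreceptor genes on the array only Orco, the shared subunit of the odorant receptors, was bright enough to test. Orco read 55.1, 138, 41.4, 119 and 41.1 on the tomato arrays, against 75.2 to 108 on the standard arrays, so that lines 362 and 786 stood above and the other 3 below the standard range (adjusted p = 0.39). The odorant-binding gene lush differed by -0.34 (adjusted p = 0.34).

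All 11 clock genes on the array were tested and 0 were called in limma, with 2 (18.2%) lower at an unadjusted p under 0.05. Those were cry, which encodes the light sensor cryptochrome, at -0.53 (SE 0.12, adjusted p = 0.081), and Pdf, the neuropeptide gene of the clock neurons, at -0.79 (SE 0.21, adjusted p = 0.12). Pdf was weak, with 31.8 to 79.0 on the tomato arrays, against 65.6 to 127 on the standard arrays. The others were Clk (-0.31), vri (-0.24), per (-0.24), tim (-0.13), cwo (-0.01), Pdp1 (0.07), jet (0.12), dco (0.15) and cyc (0.25), with adjusted p of 0.37 to 0.93. The labels give no time of collection within the light cycle.

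Among 22 tested genes of insulin and nutrient signalling 0 were called in limma, with 4 (18.2%) lower and 2 (9.09%) higher at an unadjusted p under 0.05. Akh, the adipokinetic hormone gene, read 158, 221, 215, 279 and 200.3 on the tomato arrays, against 234 to 321 on the standard arrays, below both standard arrays in every line (-0.46, SE 0.12, adjusted p = 0.10). ImpL2, which encodes a secreted binder of insulin-like peptides, differed by -0.33 (adjusted p = 0.13). Jheh2 and Jhedup, of juvenile hormone breakdown, differed by -0.25 and -0.55 (adjusted p = 0.12 and 0.14), in a list of 9 genes with 2 (22.2%) lower at an unadjusted p under 0.05. Gnmt, which uses up methyl groups from S-adenosylmethionine, differed by -0.71 (SE 0.15, adjusted p = 0.068) and hgo, of tyrosine breakdown, by -0.50 (adjusted p = 0.16), in a list of 19 amino acid genes with 5 (26.3%) lower and 2 (10.5%) higher at an unadjusted p under 0.05.

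Lists that mark large tissues gave no call, although most members of some of these lists had lower means. Of 17 eggshell genes 0 were called and 0 had an unadjusted p under 0.05, with a median of 0.02, and the vitelline membrane gene Vm34Ca differed by -0.20 and the chorion gene Cp16 by 0.48 (adjusted p = 0.36 and 0.43). The yolk protein genes Yp1, Yp2 and Yp3 differed by -0.23, -0.20 and -0.22 (adjusted p = 0.37 to 0.40), with -0.56 to -0.67 in lines 158 and 362 and -0.11 to 0.15 in the other lines. Their median of -0.22 was -0.03 after quantile normalisation. The photoreceptor arrestin gene Arr2 was at -0.38 and the muscle gene Mf, for myofilin, at -0.34 (adjusted p = 0.095 and 0.073). The sperm gene Mst87F differed by -0.54 (adjusted p = 0.33). The testis list had 23 of 24 lower means, 1 (4.17%) at an unadjusted p under 0.05, where 9.87% of all tested genes were. Its median of -0.31 was like that of the digestive proteases (-0.31). The only higher mean in the list, 0.10, was that of svp, which is not specific to the testis. The phototransduction list had 11 of 12 lower means, 3 (25.0%) at an unadjusted p under 0.05, with a median of -0.25.

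Ribosomal protein genes gave 0 calls in limma, and their means differed by small amounts. All 34 tested cytoplasmic ribosomal protein genes had lower means on the tomato arrays, 12 of them (35.3%) at an unadjusted p under 0.05, with a median of -0.20. After quantile normalisation that median was -0.01, with 24 of 34 lower, so that its size depends on the scaling. RpL27 was at -0.38 (adjusted p = 0.26), with -1.19 in line 859. Of 66 mitochondrial ribosomal protein genes 61 had higher means, 7 (10.6%) at an unadjusted p under 0.05, with a median of 0.12, and 0.07 after quantile normalisation. mRpL52 was at 0.38 (adjusted p = 0.14).

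Metallothioneins bind metals such as copper and zinc, and 4 of them were tested, with 0 calls and 2 higher at an unadjusted p under 0.05. MtnD read 457, 2951, 1981, 413 and 1471 on the tomato arrays, against 79.3 to 1710.4 with a median of 1004 on the standard arrays. It was above both standard arrays in 4 lines, by 0.78 to 2.24, and below them in line 158 by -1.28, for a mean of 0.72 (SE 0.32, adjusted p = 0.34). MtnC read 2960.4, 2753, 3973, 5519 and 2097 on the tomato arrays, against 1023 to 4410.1 on the standard arrays, with line differences of 1.72 in line 786 and -0.34 in line 158 (mean 0.59, SE 0.21, adjusted p = 0.26). MtnB differed by 0.53 (SE 0.63), with 3.23 in line 786 and -0.92 in line 362, and MtnA by -0.06 (SE 0.11). Among other metal genes, Mco1, a multicopper oxidase gene, differed by -0.57 (adjusted p = 0.097) and Zip88E, a zinc transporter gene, by 0.31 (adjusted p = 0.22).

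**Figure D4:**
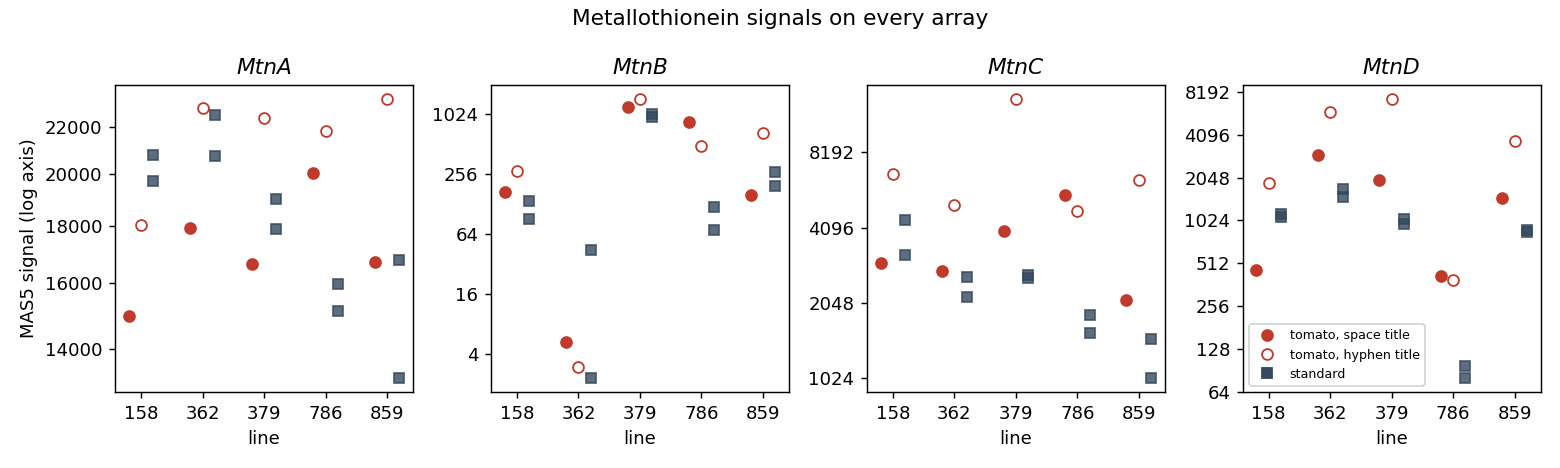
MAS5 signals (log axes, which differ between panels) of 4 metallothionein genes on the tomato arrays with a space in the title (filled circles), on the hyphen-titled tomato arrays of the same lines (open circles) and on the standard arrays (squares). MtnD is above the standard arrays in lines 362, 379, 786 and 859 and below them in line 158 on the space-titled arrays, while the hyphen-titled arrays are above the standard arrays in all 5 lines.

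The question whether the lines answered alike was put to an F-test of line by medium. Its error comes from the 5 pairs of standard arrays alone, with 5 residual degrees of freedom, and the lone tomato array of a line is assumed to vary as standard arrays do. With 1 tomato array a line, a difference between lines and a difference between single tomato arrays cannot be told apart. By this test 4425 probe sets (39.3%) and 3785 genes (40.2%) were called. Tested line by line, the tomato array differed from the standard arrays at 4189 probe sets in line 158 (37.2%), 57 in line 362 (0.506%), 4767 in line 379 (42.3%), 729 in line 786 (6.47%) and 24 in line 859 (0.213%). Over the tested probe sets, line and line by medium took a median of 44.8% and 31.4% of the sum of squares, with 4 degrees of freedom each. Medium took 6.55% with 1 and the spread of standard pairs 9.12% with 5, so that the raw shares cannot be compared directly.

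Most lines differed along a common pattern, in 1 direction or the other. Over probe sets, which share their arrays and are not independent, the differences of lines 158 and 379 correlated at 0.75, and those of line 859 with these at 0.60 and 0.54. Line 786 ran against the 3, at -0.66, -0.63 and -0.53, and line 362 was close to 0 with lines 158 (-0.02) and 379 (-0.03). Cuticle, muscle and cell cycle genes were among those that carried this pattern. The mean log2 signal of testis genes differed by -0.99, -0.89 and -0.29 in lines 158, 379 and 859 and by 0.47 in line 786. For accessory gland (-0.50, -0.31, -0.29 and 1.09) and neuronal genes (-0.66, -0.56, -0.23 and 0.46) the signs were the same. Phototransduction genes did likewise (-0.84, -0.67, -0.18 and 0.60). Median signal, given above, was also lower on the tomato arrays of lines 158, 379 and 859 and higher on that of line 786. The mean log2 signal of 33 cuticle genes differed by -1.29, -0.83 and -0.49 in lines 158, 379 and 859, by 0.27 in line 362 and by 1.40 in line 786. That of 21 muscle genes differed by -0.97, -0.50 and -0.47, by 0.26 and by 0.95 in the same lines. That of 16 cell cycle and DNA replication genes ran the other way, at 1.00, 1.42 and 0.55 in lines 158, 379 and 859, 0.01 in line 362 and -0.79 in line 786.

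**Figure D5:**
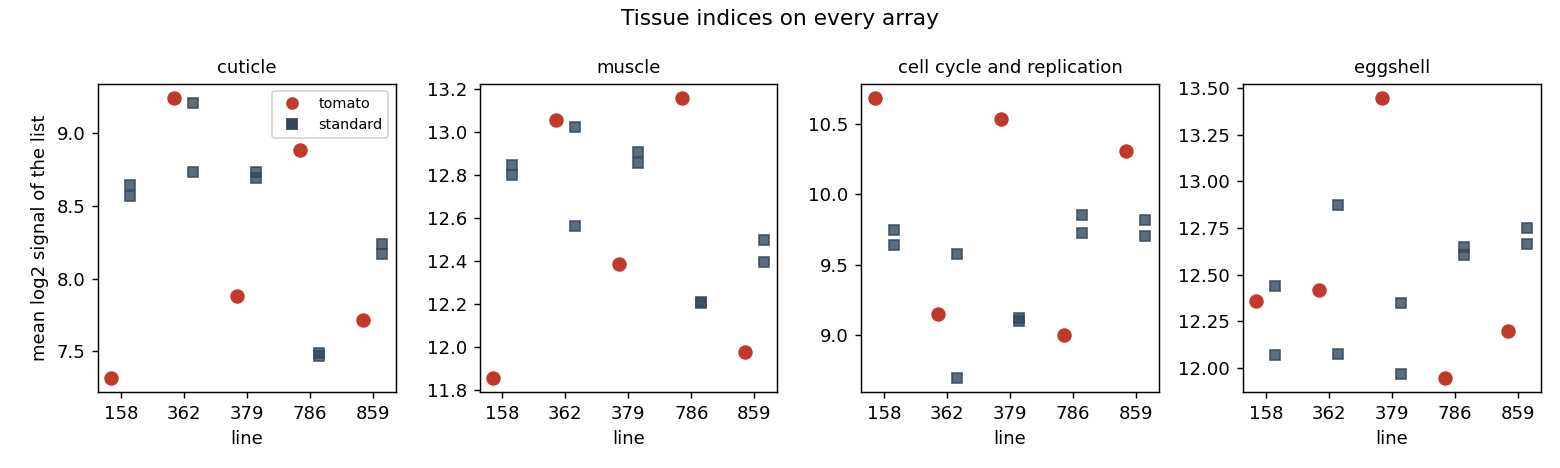
Mean log2 signal of 4 gene lists on each of the 15 arrays, by line, with tomato arrays as red circles and standard arrays as dark squares. The tomato arrays of lines 158, 379 and 859 are below their standard arrays for cuticle and muscle genes and above them for cell cycle genes, that of line 786 is the reverse, and eggshell genes stand out on the tomato array of line 379 (13.4, against 12.0 and 12.3 on its standard arrays).

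Among the cell cycle genes, CycE, Orc5 and Orc4, which encode cyclin E and 2 subunits of the origin recognition complex, differed by 0.67, 0.54 and 0.57 in the mean (adjusted p = 0.28, 0.33 and 0.35). CycE read 2121, 703, 1525, 535 and 1511 on the tomato arrays, against 324 to 1024 on the standard arrays, with differences of 1.39, 0.69, 1.46, -0.81 and 0.61 by line. All 16 tested genes of this list had higher means and 3 (18.8%) an unadjusted p under 0.05, with a median of 0.42, and 15 of the 16 (93.8%) were called in the F-test. In the cuticle list 25 of 33 (75.8%) and in the muscle list 19 of 21 (90.5%) were called in that test. The antimicrobial list had 9 of 11 (81.8%) called in it, with index differences of -1.06 and -1.03 in lines 158 and 379, -0.69 in line 362 and -0.06 and -0.10 in lines 786 and 859.

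The 10 genes with the smallest p in the F-test were mostly genes whose line differences had opposite signs. Acp65Aa, an adult cuticle gene, read 290.4, 13008, 5987, 10388 and 1122 on the tomato arrays, with differences of -3.99, 0.27, -0.53, 2.59 and -2.29 by line (adjusted p = 0.00013). Cpr47Ea, a cuticular protein gene, ranged from -4.30 in line 158 to 3.01 in line 786 (adjusted p = 0.00082). Another group peaked in line 379, with 2.86 for CG13083, 3.75 for CG31928, 2.66 for CG15571 and 2.55 for CG13084, against -1.43, -1.14, -1.42 and -1.47 in line 786. For others line 786 stood out, with 3.14 for CG11893, 2.72 for CG13026 and 2.00 for CG18180, where no other line exceeded 0.44. MtnD, with -1.28 in line 158 and 2.24 in line 786, was among these 10 too. The cuticle gene Cpr72Ec, named through its list, differed by -2.72 in line 379 and 0.24 in line 786.

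The tissue lists were also set beside the shared falls. All 30 called probe sets stayed called when the eggshell index of each array was a covariate, and again with the cuticle index, a covariate chosen after the indices had been seen. With those covariates the calls numbered 294 and 633. RNA quality, as the difference between 3' and 5' actin probe sets, averaged 1.20 ± 0.16 on tomato arrays (SD, n = 5) and 1.20 ± 0.23 on standard arrays (SD, n = 10). With it as a covariate all 30 stayed called among 109. The same measure for Gapdh averaged 2.08 ± 0.19 on tomato arrays (SD, n = 5) and 2.23 ± 0.36 on standard arrays (SD, n = 10), and was lower on tomato in 4 of 5 lines. With it as a covariate, added after these values had been seen, all 30 stayed called among 293. The mean tomato minus standard difference of each covariate lay within its SD over the 5 lines. It was 0.03 (SD 0.77) for eggshell, -0.19 (1.06) for cuticle, 0.00095 (0.33) for actin and -0.15 (0.32) for Gapdh. Such covariates can change the mean tomato difference only little, so that the 30 staying called is not separate evidence. Whether tissue content or RNA quality lay behind the falls was not tested. Of the 30, 7 were also called in the F-test, namely Def, PPO2, CG43103, Drsl5, SPE, Tep4 and Npc2g, all with 1 direction in 5 of 5 lines.

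The hyphen-titled tomato arrays of the same 5 lines give a second look at the medium, although both comparisons share the standard arrays. Set against each other in pairs by line, the space-titled and hyphen-titled tomato arrays differed at 4856 probe sets (43.1%), 2842 of them higher and 2014 lower on the space-titled arrays. The count was 3220 without line 158 and 3038 without line 859. The eggshell index was 11.9 to 13.4 on the space-titled and 3.90 to 10.8 on the hyphen-titled arrays. The antimicrobial index was 8.97 to 9.98 on the space-titled and 10.1 to 10.7 on the hyphen-titled arrays, where the standard arrays ran from 8.96 to 10.7. Neither the rearing nor the RNA extraction protocol of the labels differs between the title styles.

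For the members of the shared fall the values against standard arrays stand side by side as follows. Def was at -1.30 on the space-titled and 0.09 on the hyphen-titled arrays, a difference between the styles of -1.40 (SE 0.34, adjusted p = 0.014). PPO2 was at -1.23 and -0.84, a difference of -0.40 that was not called (adjusted p = 0.13). CG14125 was at -0.69 and 0.36, and Cyp6a2 at -0.51 and 0.64, with differences between the styles of -1.05 and -1.15 (adjusted p = 0.0037 and 0.0048). hiro, at -0.66 and -0.50, and eloF, at -0.49 and -0.71, did not differ between the styles beyond the spread of pairs (adjusted p = 0.59 and 0.37). Gnmt and hgo, at -0.71 and -0.50 on the space-titled arrays, were at 1.497 and 1.63 on the hyphen-titled ones (adjusted p = 0.0031 and 0.00038 for the difference), and MtnD and MtnC, at 0.72 and 0.59, were at 1.96 and 1.63 (adjusted p = 0.010 and 0.014).

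The other called genes, with their space-titled values given above, were spread on both sides of 0 on the hyphen-titled arrays. Above 0 were CG14120 (0.62), CG6421 (0.50), CG30026 (0.48), CG11841 (0.30), CG33127 (0.29), CG10799 (0.27), CG3819 (0.22), Alp9 (0.14), veil (0.089), Alp10 (0.078), Bbd (0.059), SPE (0.057), Drsl5 (0.032) and CG17560 (0.0096). Below 0 were Npc2g (-0.38), CG43103 (-0.38), CG16756 (-0.29), CG9928 (-0.22), the dimmer Tsf1 probe set (-0.18), CG7542 (-0.13), Tep4 (-0.097) and CG4250 (-0.01). Of the probe sets without a gene name, the one called lower was at 0.60 and the one called higher at 0.25. The median of the 30, counted in the direction of the call, was 0.63 on the space-titled and -0.06 on the hyphen-titled arrays.

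List medians also changed sign between the styles. On space-titled and then hyphen-titled arrays, against the same standard arrays, the median was -0.43 and 0.24 for antimicrobial peptides, -0.31 and 0.22 for recognition and haemocyte genes, -0.23 and 0.36 for P450 genes, -0.17 and 0.28 for glutathione transferases and -0.25 and 0.16 for odorant-binding proteins. It was -0.22 and 0.30 for cuticle, -0.15 and 0.21 for muscle, 0.42 and -0.999 for cell cycle and 0.12 and -0.11 for mitochondrial ribosomal protein genes. After quantile normalisation the space-titled medians were -0.10 for cuticle, -0.07 for muscle and 0.38 for cell cycle genes. They were then -0.42 for antimicrobial peptides, -0.29 for recognition and haemocyte genes and -0.21 for P450 genes. Glutathione transferases were at -0.13 and odorant-binding proteins at -0.18 in that fit. Digestive proteases were at -0.31 and -0.06 and cytoplasmic ribosomal proteins at -0.20 and -0.06, beside -0.01 and -0.03 over all tested genes.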

How the data were processed

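Total RNA of whole adult flies was measured on Affymetrix Drosophila expression arrays. The authors deposited 1 intensity per probe set and array, a MAS5 signal per the submitters' processing notes, and the trimmed mean of every array lay between 500.01 and 500.015. The files list 18952 probe sets. Tests dropped 183 controls and kept the brightest 60% by mean over the 48 arrays (11261). Of all probe sets, 13647 had 1 gene symbol in the platform annotation, 402 had several and 4720 had none. For 13544 the symbol was matched in the RefSeq table of the Release 6 plus ISO1 MT assembly, used for names and neighbours only.

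Signals were set to at least 1 and taken as log2 values. limma 3.58.1 in R 4.3.3 fitted line and medium with a trended prior (9 residual and 3.91 prior degrees of freedom), with Benjamini-Hochberg adjustment over all tested probe sets. The line by medium test and the pairs of space-titled and hyphen-titled arrays were fitted likewise. No 2 arrays held identical values. The number of arrays limits the precision, and depth does not apply.

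Genes are represented by their brightest tested probe set. The rule named the 12 largest called falls, the 12 smallest p-values among genes above both standard arrays in every line, since fewer than 5 were called higher, 3 genes a list (all metallothionein, yolk and clock genes), the 10 smallest p-values of the F-test, Orco and lush. The comparison and the lists were chosen with earlier results of these data known. Alternatives changed the scaling, filter, pseudocount, moderation, covariates and arrays.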

Additional observations from a re-analysis of the deposited data

Results flagged for a closer look

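Among the line differences of 107 genes and 15 array measures, 1 of the 5 lines stood apart from the other lines in 2 by more than the 95% limit of Dixon's test (0.71 for 5 values), which chance passes in about 1 in 20 groups. The zinc transporter gene Zip88E differed by 0.10 in line 362, against 0.33 to 0.42 in the other lines. The difference between 3' and 5' actin probe sets was -0.585 in line 158 as tomato minus standard, against 0.07 to 0.21 in the other lines.

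In the F-test of line by medium, 4425 probe sets were called, on the assumption that single tomato arrays vary as standard pairs do. Among the called falls this held for PPO2 (adjusted p = 0.0083), CG43103 (0.011), Drsl5 (0.025), SPE (0.031), Def (0.036), Npc2g (0.044) and Tep4 (0.049), all with 1 direction in 5 of 5 lines. Among genes chosen for this test it held for CG13083 and Acp65Aa (0.00013 each), CG11893 (0.00015), CG31928 (0.00058), CG15571 and MtnD (0.00065 each), CG13026 and CG13084 (0.00068 each) and CG18180 and Cpr47Ea (0.00082 each).

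Other immune and gut genes with such an adjusted p were PPO1 (0.019), Mtk (0.020), Tsf1 (0.035), NimB2 (0.039), Jon66Ci (0.012), thetaTry (0.014), LManII (0.025), GstE9 (0.026) and Ser6 (0.041). MtnC (0.015) and MtnA (0.042) joined MtnD. Of the eggshell, yolk and cell cycle genes, Cp16 (0.0022), CycE and Orc5 (0.013 each), Orc4 (0.018), Yp2 (0.030), Yp3 (0.032) and Yp1 (0.033) were in this group. Of the sensory and clock genes it held Obp19d (0.015), Arr2 (0.018), cyc (0.021), Orco (0.025), tim (0.029), vri (0.037), Clk (0.042) and dco (0.046). The rest were RpL27 (0.0067), Cpr72Ec (0.0086), santa-maria (0.022), Jhedup (0.047) and sun (0.050).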

How the results depend on the processing

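The count of 30 calls (1 higher, 29 lower) depended on the fit. It was 34 after quantile normalisation (2 and 32), 41 after median centring (1 and 40), 24 with no filter (1 and 23), 68 with the brightest 40% of probe sets (3 and 65), 30 with a pseudocount of 16, 9 without the trended prior (1 and 8), and 27 without moderation (3 and 24). It was 0 with array weights (4074 at an unadjusted p under 0.05), 0 for pairs of line means (490) and 0 against the same-numbered standard array alone (376). Covariates gave 109 for the actin measure (7 and 102), 294 for the eggshell index (25 and 269) and 633 for the cuticle index, added after the data were seen (176 and 457), and 293 for the Gapdh measure, added likewise (13 and 280). With the standard arrays of 3 further lines there were 4 calls (0 and 4), with hyphen-titled in place of space-titled tomato arrays 4003 (1560 and 2443), and with both tomato arrays 0 (780 at an unadjusted p under 0.05). Leaving out a line gave 0 to 3027 calls (0 to 1426 higher, 0 to 1601 lower), and leaving out a standard array 3 to 28 (0 to 1 and 3 to 27). A replicate block on the array number gave 6 (0 and 6). Deviations of same-numbered arrays correlated at -0.52 to 0.27. With 1 tomato array a line, these values cannot decide whether arrays of the same number were processed together. In single lines, quantile normalisation gave 50 calls in line 859, and a fit without the trended prior gave 20 in line 362, 431 in line 786 and 13 in line 859. The space-titled and hyphen-titled tomato arrays differed at 3038 to 4811 probe sets when a line was left out. The causes were not tested.

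With the hyphen-titled in place of the space-titled tomato arrays, 29 of 35 list medians changed sign (23 moved by at least 1 SD of the list’s line medians), and among genes called in at least 1 of these fits the direction reversed for Def (0.095), Alp9 (0.14), CG14120 (0.62), Bbd (0.059), Alp10 (0.078), CG14125 (0.36), CG17560 (0.0096), CG3819 (0.22), CG30026 (0.48), SPE (0.057), Drsl5 (0.032), CG6421 (0.50), CG11841 (0.30), Cyp6a2 (0.64), veil (0.089), CG33127 (0.29), CG10799 (0.27) and the called probe set without a gene name (0.60). Among genes called with the hyphen-titled arrays alone it reversed for GstE9 (0.29), GstE2 (0.33), Mco1 (0.53), Mal-A1 (1.19), santa-maria (0.50), Obp19a (0.36), Obp19d (0.19), Orco (0.44), lush (0.42), vri (0.84), tim (1.41), cwo (0.43), dco (-0.28), Jhedup (0.56), ImpL2 (0.55), Gnmt (1.497), hgo (1.63), CycE (-1.54), Orc5 (-0.88), Orc4 (-0.72), Cp16 (-3.60), CG13083 (-2.79), CG31928 (-2.97) and CG15571 (-3.04). The sign of 22 further genes turned with no call in either fit, among them Jon66Ci (0.55), Akh (0.31), cyc (-0.49), cry (0.18), Clk (0.21) and per (0.21). Cyp6a2 was at 0.064 with both tomato arrays, and CG13026 ranged from -0.57 without line 786 to 0.49 without line 859.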

Other observations

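Some lists showed no shared direction. In the 12 tested heat shock genes 6 had higher and 6 lower means on tomato arrays, with 0 called in limma and 1 (8.33%) lower at an unadjusted p under 0.05. Of 15 antioxidant genes 6 were higher and 9 lower, with a median of -0.06. The Turandot stress genes, of which 4 were tested, had 1 higher and 1 lower at an unadjusted p under 0.05. In the lysozyme list LysS, LysP and LysX had differences of 0.56, -0.36 and -0.80 (adjusted p = 0.33, 0.26 and 0.40). Proteasome genes had 25 of 31 higher means with a median of 0.06 and 0 at an unadjusted p under 0.05. Maternal germline genes had 15 of 18 higher means with a median of 0.18, by line 0.39, -0.05, 0.50, -0.38 and 0.33 in lines 158, 362, 379, 786 and 859. Carbohydrate metabolism genes had 21 of 22 lower means with a median of -0.12, which was -0.43 in line 158 and 0.39 in line 786. After quantile normalisation 15 of the 22 were lower, with a median of -0.05. These lysozyme genes were named after their values were seen.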
